A study of Mus musculus with 6 samples.

Results

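The 8 mouse globin genes Hba-x, Hba-a1, Hba-a2, Hbb-y, Hbb-bh1, Hbb-bh2, Hbb-b1 and Hbb-b2 were taken by symbol from count tables that list 23284 genes, and all 8 were found. The tables came from polyadenylated RNA of erythroblasts, the nucleated precursors of red cells, taken at embryonic stage E10.5 (strain C57BL/6) and sorted as live Ter119+CD71+ cells. Ter119 marks the red cell lineage and CD71 is the transferrin receptor. The labels name fetal liver as the source, while the design text names fetal blood. Null libraries (n = 3) carried SETD8fl/fl with EpoR Cre, a recombinase driven from the erythropoietin receptor gene, which is used in the red cell lineage. Controls (n = 3) were of 2 genotypes: control replicates 1 and 3 were Setd8 +/+ EpoRCre, with the Cre but wild-type Setd8, and control replicate 2 was Setd8 fl/fl EpoR WT, with the floxed alleles but without the Cre. The labels do not say how many embryos went into a library.

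Hemoglobin joins 2 alpha-like and 2 beta-like chains, each made from a gene cluster of its own. In the mouse embryo the primitive red cells of the yolk sac use the embryonic genes Hba-x (zeta), Hbb-bh1 (beta-h1) and Hbb-y (epsilon-y), together with the adult alpha genes Hba-a1 and Hba-a2. The adult beta genes are the mark of definitive red cells, which arise in the fetal liver. As primitive cells mature in the blood, zeta is known to give way to alpha and beta-h1 to epsilon-y.

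Some of these genes are near-identical copies, whose reads a counter may not be able to assign, so coding parts are shown first. All come from GENCODE M21 (GRCm38), which is a later build than the mm9 named for the counts, and positions start from 1 at the A of the start codon. Hba-a1 and Hba-a2 have coding parts of 429 bases that differ at 1 base, C381T (Hba-a1 first). Bases 336 to 426 are given with that base in capitals.

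Hba-a1: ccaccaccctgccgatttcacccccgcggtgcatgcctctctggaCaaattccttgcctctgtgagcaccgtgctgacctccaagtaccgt
Hba-a2: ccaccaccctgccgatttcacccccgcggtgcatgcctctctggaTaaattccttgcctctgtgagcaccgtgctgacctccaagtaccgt

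Of the 50-base windows of the Hba-a1 transcript 67.5% occurred letter for letter in Hba-a2, and 86.9% of those of Hba-a2 occurred in Hba-a1. With windows of 100 bases the shares were 56.5% and 74.5%. By contrast Hbb-y and Hbb-bh1, both of 444 coding bases, differ at 105 of them, and their longest identical run is 26 bases. Their first 120 coding bases are given below, with the 36 that differ in capitals.

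Hbb-y: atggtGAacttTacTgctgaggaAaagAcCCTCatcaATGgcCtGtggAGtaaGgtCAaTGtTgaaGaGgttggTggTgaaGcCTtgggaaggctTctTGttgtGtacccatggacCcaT
Hbb-bh1: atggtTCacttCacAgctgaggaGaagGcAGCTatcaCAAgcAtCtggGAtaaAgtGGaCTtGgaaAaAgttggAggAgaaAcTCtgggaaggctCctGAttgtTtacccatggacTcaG

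No 50-base window of Hba-x, Hbb-y, Hbb-bh1 or Hbb-bh2 occurred in the transcript of any other gene. No M21 transcript carried the symbols Hbb-b1 or Hbb-b2. The adult beta genes of that assembly are Hbb-bs and Hbb-bt, which differ at 1 coding base of 444 and share 65.8% and 58.3% of their 50-base windows, and neither symbol was a row of the count tables.

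The adult genes were nearly without reads in every library. Hba-a1 had 0 reads in all 3 controls and 1, 0 and 0 in nulls 1 to 3, and Hba-a2 had 0 in all controls and 2, 5 and 1 in nulls 1 to 3. Hbb-b1 had 1, 1 and 4 reads in controls 1 to 3 and 8, 4 and 2 in nulls 1 to 3. Hbb-b2 was listed at 0 in all 6 libraries. These 4 genes did not pass the filter on low counts, and no fold change was taken for them. With 3 reads taken as the limit for a count of 0 (the upper end of the exact 2-sided 95% Poisson interval is 3.69), a gene at 0 may reach 0.140 to 0.387 CPM (counts per 1000000 gene counts), depending on the library, for uniquely assigned reads and counting error only. The counter's summary lines, which were present in the tables of control replicates 1 and 2 and null replicate 1, held 5767719, 7121606 and 11721636 reads without a unique alignment. Whether adult globin reads were among them was not tested. The adult counts are thus given for uniquely assigned reads alone and not as levels of adult globin RNA.

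Hbb-y, Hba-x and Hbb-bh1 were the 3 most counted genes of every library, with Hbb-y first in all 6. Together the 8 globins took 45.2%, 44.4% and 37.1% of gene counts in controls 1 to 3, and 39.9%, 28.3% and 26.5% in nulls 1 to 3. Counting error is small here, since the widest exact (Clopper-Pearson) 95% interval of any of these or the following shares of globin counts was ± 0.0566 percentage points. The mean share was 42.2% ± 4.47 (SD, n = 3) in controls and 31.6% ± 7.28 in null cells, and the groups overlapped. The difference of -10.6 percentage points had an exact permutation p of 0.2 (2-sided, 20 assignments; the smallest possible is 0.1), and of 0.111 with libraries exchanged within title sets (0.25 and 0.278 adjusted over the 5 shares and ratios tested).

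**Figure D1:**
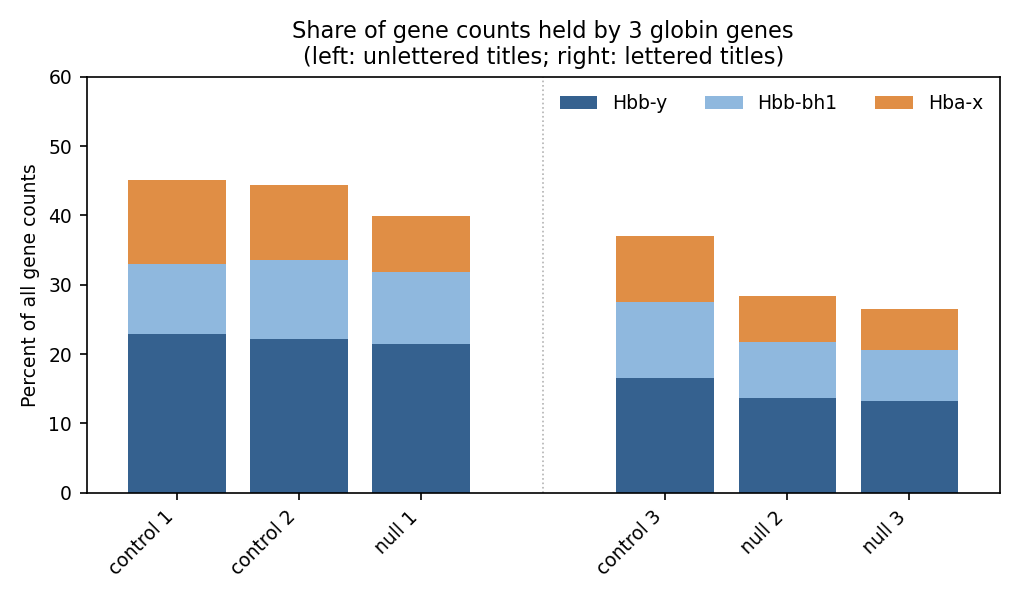
Percent of all gene counts (vertical axis) held by Hbb-y, Hbb-bh1 and Hba-x in each of the 6 libraries (bars), with controls and nulls side by side within the libraries of unlettered titles (left) and of lettered titles (right). In both title sets the null bars are shorter than the control bars, and the lettered bars (26.5% to 37.1%) are all shorter than the unlettered ones (39.9% to 45.2%).

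The libraries came in 2 sets, told apart by a trailing letter in the sample title. Control replicates 1 and 2 and null replicate 1 have no letter, and control replicate 3 and null replicates 2 and 3 have one. All 4 globins tested were lower in the lettered set, with group in the model: Hbb-y by a log2 ratio of -1.03 (SE 0.18), Hba-x by -0.78 (SE 0.17), Hbb-bh1 by -0.65 (SE 0.19) and Hbb-bh2 by -1.42 (SE 0.47). The edgeR quasi-likelihood adjusted p of these were 0.000899, 0.00521, 0.0229 and 0.0416, where 10.9% of all genes tested were lower in the lettered set. Null was therefore compared with control with the title set as a term (set-adjusted), and again with group alone. Setd8 itself stood at 73.8 and 74.7 CPM in the unlettered controls against 48.8 in the unlettered null, and at 203 against 100 and 96.2 in the lettered set. Its set-adjusted log2 ratio was -0.83 (SE 0.17, edgeR adjusted p = 0.00911), and did not pass with group alone (log2 ratio -0.52, adjusted p = 0.702). Reads are counted over the whole gene, so exons outside the deleted part may be included. Gene counts per library ran from 7756940 to 21434719, lowest in control replicate 1. Reads of Y-linked genes numbered 792, 9 and 0 in controls 1 to 3 and 2330 to 2814 in the null libraries. The part of this in the other results was looked at only by a term for their presence (above 5 CPM) or absence, given below. They were present in every null library and, of the controls, in control replicate 1 alone. Only that library sets this term apart from genotype, so fits with it cannot separate the 2 well.

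The labelled cell type was checked with marker lists. Summed over 8 erythroid markers, controls held 6620 to 7812 CPM and null libraries 6044 to 6725. Slc4a1, the anion exchanger band 3, and Tfrc, CD71 itself, were counted in every library. Of these 8 markers 2 were called lower and 0 higher set-adjusted by edgeR, against 4.16% lower and 8.65% higher over all genes, with a median log2 ratio of -0.45. Both called markers, named here after their values were seen, encode receptors. Tfrc, whose product the cells were sorted for, stood at 398, 435 and 443 CPM in controls 1 to 3 and 192, 273 and 265 in nulls 1 to 3 (log2 ratio -0.92, adjusted p = 0.00363). Epor, the erythropoietin receptor gene that carries the Cre, stood at 52.2, 118 and 158 CPM in controls 1 to 3 and 34.4, 91.2 and 84.4 in nulls 1 to 3 (log2 ratio -1.08, adjusted p = 0.0313). With group alone neither passed (edgeR adjusted p = 0.184 for Tfrc and 0.633 for Epor). The groups overlapped for Epor and not for Tfrc. Control replicate 2 was EpoR WT, so its Epor gene lacked the Cre that the other libraries carried. The part of that in the Epor values was not tested. Slc4a1 and Epb4.2, the membrane protein band 4.2, had every null library below every control but did not pass (log2 ratios -0.52 and -0.50, adjusted p = 0.0678 and 0.0829). The part of this difference in the globin values was not tested. Markers of other cells were low, and for 4 of 6 lists the summed level of every null library was above that of every control. The share of all genes in that order was not taken, so this count has no background beside it. Summed macrophage markers (10 genes) stood at 1.81 to 11.1 CPM in controls and 33.6 to 90.1 in null libraries, endothelial markers (7) at 0.319 to 1.49 and 5.73 to 20.02, and markers of definitive red cells (6) at 0.592 to 2.18 and 10.2 to 19.6. Megakaryocyte markers (7) stood at 14.3 to 35.6 and 42.0 to 83.4 CPM. Itga2b was the largest part of that sum in every library. Gp9 of the same list was lower in the nulls, at 6.07, 5.37 and 4.60 CPM in controls 1 to 3 and 3.73, 4.46 and 3.97 in nulls 1 to 3. Hepatic markers (8) stood at 0.532 to 4.37 and 0.615 to 5.95 CPM and mesenchymal markers (6) at 0.148 to 3.07 and 0.155 to 3.18. Alb, Emcn and Dcn, which mark hepatocytes, endothelium and fibroblasts, were at 0 in all libraries. The part of other cells in the globin values was not tested.

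Zeta globin was lower without Setd8 in each title set. Hba-x, the embryonic alpha-like chain, stood at 139250, 123138 and 88291 CPM in controls 1 to 3 and at 100163, 55405 and 45618 CPM in nulls 1 to 3 (CPM scaled by TMM). The groups overlapped as a whole, since null replicate 1 lay above control replicate 3, but within each set every null library lay below every control. That order rests on 1 null library in the unlettered set and 1 control in the lettered set. The share of all genes in it was not taken. The group means were 116893 ± 26047 and 67062 ± 29081 CPM (SD, n = 3). Null over control was -0.39 in log2 within the unlettered and -0.81 within the lettered set. Set-adjusted, the log2 ratio of Hba-x was -0.60 with a standard error of 0.17 (edgeR, adjusted p = 0.0434). It was the 1 globin called of 4 tested, where 4.16% of all genes were called lower in this fit and 8.65% higher. With group alone 0 of 4 globins passed by edgeR (0 at unadjusted p under 0.05), where 0.00951% of genes were called lower and 1.14% higher, and Hba-x had a log2 ratio of -0.80 (SE 0.57, adjusted p = 0.590). The call was lost with any 1 of the 6 libraries left out (log2 ratio -0.81 to -0.41, adjusted p 0.0633 to 0.253), the weakest ratio being that without control replicate 3. It was lost as well with the globins left out of the scaling (log2 ratio -0.65, adjusted p = 0.0501) and with Y-linked reads as a term (-0.61, adjusted p = 0.353). In bulk RNA, fewer cells that use a gene and less RNA per cell cannot be told apart.

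**Figure D2:**
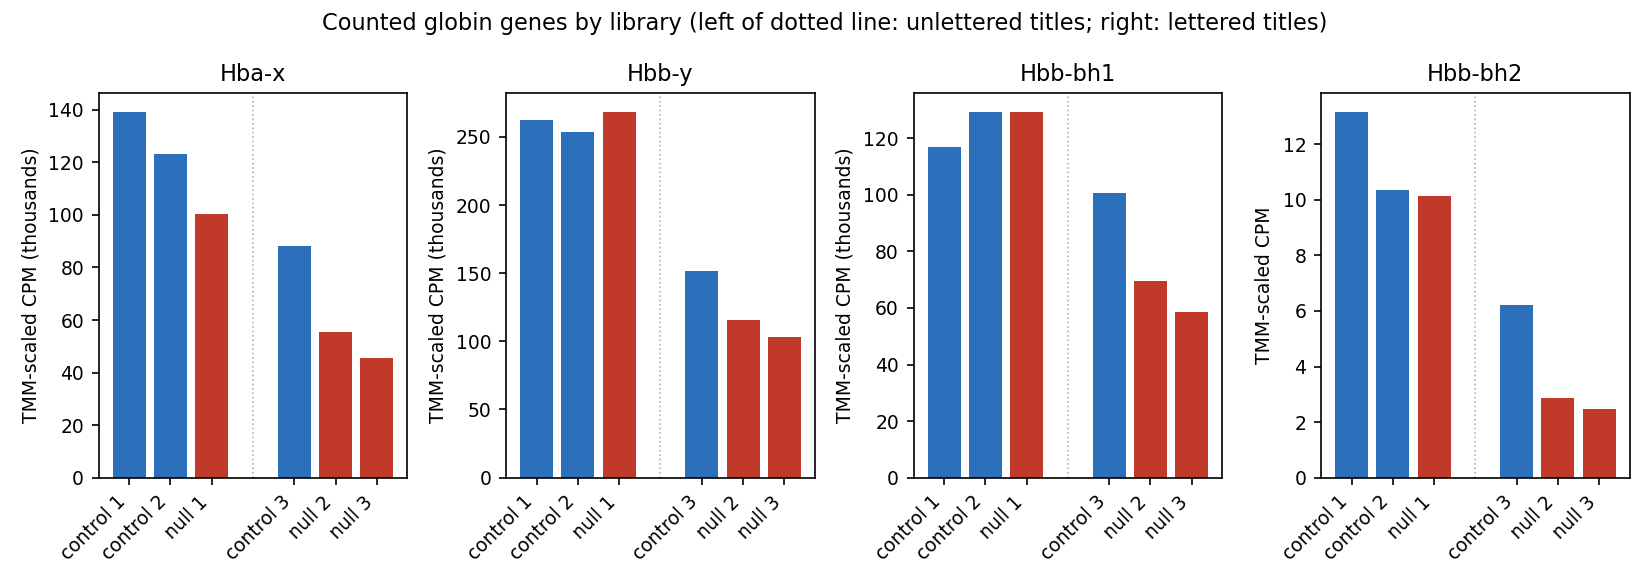
TMM-scaled CPM (vertical axes, scaled down for all but Hbb-bh2) of the 4 globin genes that passed the filter, 1 bar per library, controls in blue and nulls in red, unlettered titles left and lettered titles right of the dotted line. Hba-x is lower in every null library than in the controls of its own set, while in the unlettered set the null bars of Hbb-y and Hbb-bh1 reach the height of the controls.

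Epsilon-y did not pass. Hbb-y, the embryonic beta-like chain that gains over beta-h1 as primitive cells mature, stood at 262311, 253411 and 151812 CPM in controls 1 to 3 and at 268438, 115621 and 103461 in nulls 1 to 3. In the unlettered set the null library was the highest of the 3, and in the lettered set both nulls lay below the control. The log2 ratio was 0.058 within the unlettered and -0.47 within the lettered set, and -0.21 set-adjusted (SE 0.17, edgeR adjusted p = 0.494). With group alone it was -0.45 (SE 0.65, adjusted p = 0.815).

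Beta-h1 did not pass either. Hbb-bh1 measured 116755, 129379 and 100751 CPM in controls 1 to 3 and 129271, 69404 and 58551 in nulls 1 to 3. The unlettered null library lay within the range of its controls, and both lettered nulls lay below theirs, as they did for Hbb-y. The log2 ratio was 0.073 within the unlettered and -0.66 within the lettered set, and -0.29 set-adjusted (SE 0.19, edgeR adjusted p = 0.355). A model with an interaction of title set and genotype gave the difference between the 2 sets as -0.73 for Hbb-bh1 (adjusted p = 0.636), -0.53 for Hbb-y (0.710), -0.42 for Hba-x (0.807) and -1.01 for Hbb-bh2 (0.880). None of the 4 passed by edgeR. Hbb-bh1 alone had an unadjusted p under 0.05 (0.0241). Without control replicate 3 the set-adjusted log2 ratio of Hbb-bh1 was 0.056 and that of Hbb-y 0.042, so that their direction rests on this library.

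Hbb-bh2, a gene of the beta cluster lying beside Hbb-bh1, had few reads. There were 89, 195 and 134 reads in the controls and 174, 56 and 48 in nulls 1 to 3, which is 13.2, 10.4 and 6.22 CPM and 10.2, 2.87 and 2.48 CPM. For the library with the fewest reads the exact 95% Poisson interval of the count ran from 35.4 to 63.6, which covers counting error only. The lettered nulls were the lowest of all, and the unlettered null lay close to control replicate 2. The log2 ratio was -0.20 and -1.19 within the unlettered and lettered sets and -0.71 set-adjusted (SE 0.47, edgeR adjusted p = 0.362). It ran from -1.22 without null replicate 1 to -0.23 without control replicate 3. For each 100000 reads of Hbb-bh1 there were 11.3, 8.02 and 6.18 reads of Hbb-bh2 in the controls and 7.85, 4.14 and 4.23 in nulls 1 to 3.

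**Figure D3:**
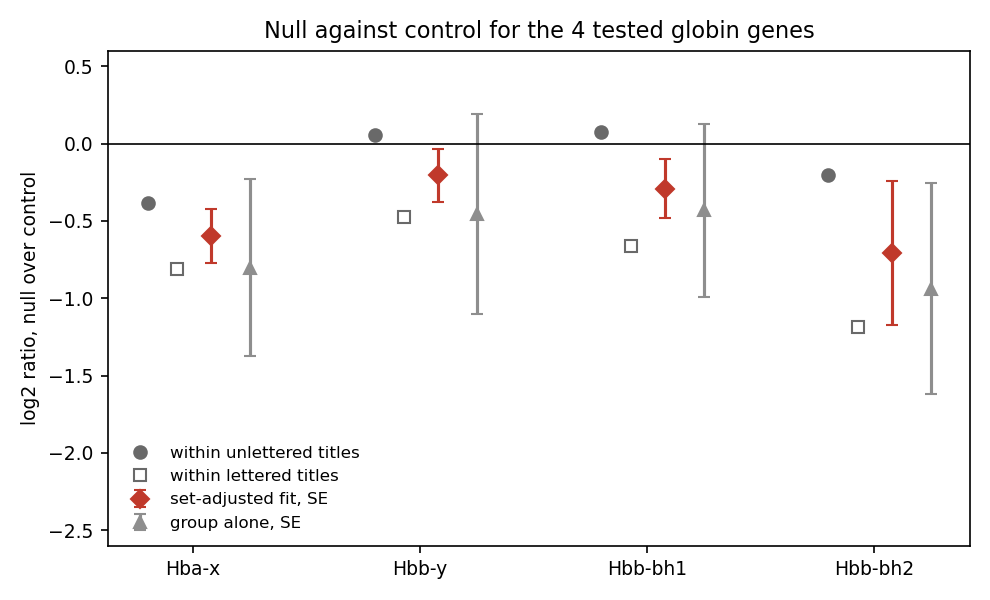
Log2 ratio of null to control (vertical axis) for Hba-x, Hbb-y, Hbb-bh1 and Hbb-bh2, within the unlettered set (filled circles), within the lettered set (open squares), and from the edgeR fits with the title set as a term (red diamonds) and with group alone (grey triangles), with SE bars for the fits. The lettered values are the lower ones for all 4 genes, and those of Hba-x and Hbb-bh2 are below 0 in both sets.

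All 4 set-adjusted ratios were below 0, with a median of -0.44 against 0.044 over all genes tested. Hba-x and Hbb-bh2 were below 0 within both sets, as were 32.5% of all genes. For none of the 4 did all nulls lie below all controls, which was so for 9.16% of all genes.

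The balance of alpha-like to beta-like reads is a ratio within a library and does not depend on how libraries are scaled. Since the adult genes were nearly uncounted, it amounts to Hba-x over the sum of Hbb-y and Hbb-bh1. It was 0.367, 0.322 and 0.350 in controls 1 to 3 and 0.252, 0.299 and 0.282 in nulls 1 to 3. All nulls lay below all controls, in both title sets. The mean was 0.346 ± 0.0230 in controls and 0.278 ± 0.0240 in null cells (SD, n = 3), a difference of -0.0686. The exact permutation p was 0.1, the smallest that 3 against 3 libraries allow, and 0.111 with libraries exchanged only within their title set, again the smallest possible (9 assignments). Adjusted over the 5 shares and ratios tested, the exact p-values were 0.25 and 0.278, so the difference did not pass. It was -0.0927 within the unlettered and -0.0591 within the lettered set, and -0.0808 to -0.0557 with 1 library left out.

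Taken 1 beta-like gene at a time, Hba-x counts were 0.531, 0.486 and 0.582 of those of Hbb-y in the controls and 0.373, 0.479 and 0.441 in nulls 1 to 3. Relative to Hbb-bh1 they were 1.19, 0.952 and 0.876 in the controls and 0.775, 0.798 and 0.779 in nulls 1 to 3. Every null library lay below every control in both ratios. Both are parts of the balance given above, not separate evidence, and were not tested. The share of other genes in this order over Hbb-y or Hbb-bh1 was not taken. Of all globin reads Hba-x held 26.9%, 24.3% and 25.9% in the controls and 20.1%, 23.0% and 22.0% in nulls 1 to 3.

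**Figure D4:**
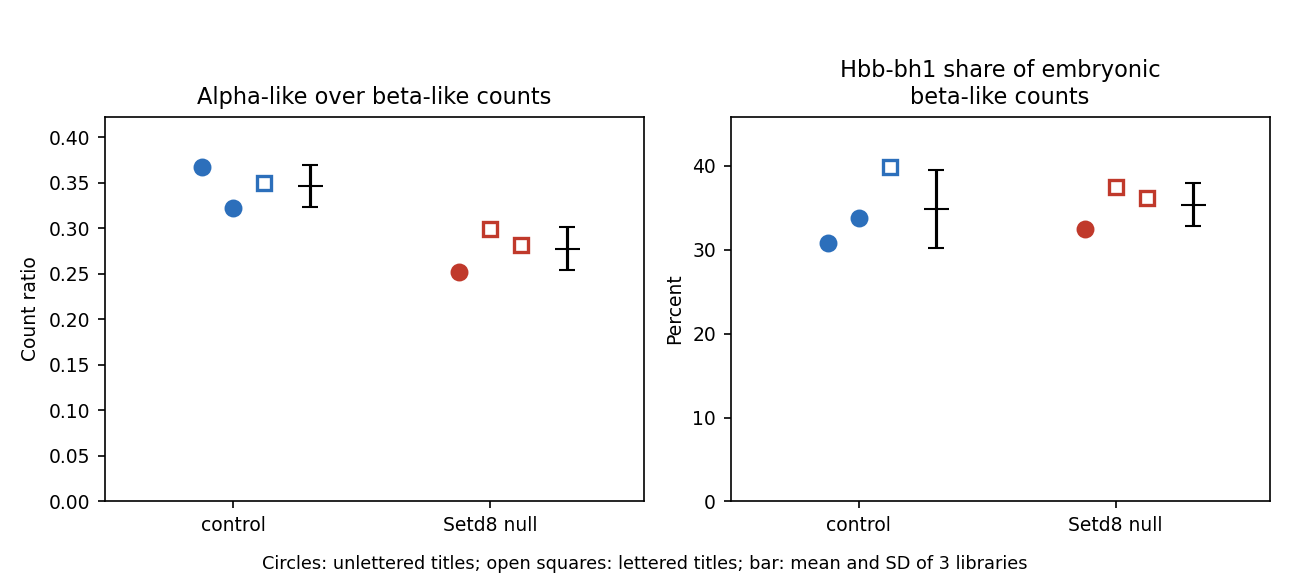
Left, counts of alpha-like over beta-like globins; right, Hbb-bh1 as a percentage of embryonic beta-like counts; 1 point per library (filled circles for unlettered and open squares for lettered titles), with the mean and SD of 3 libraries beside each group. On the left the nulls (0.252 to 0.299) lie below the controls (0.322 to 0.367); on the right the groups overlap and the lettered libraries lie above the unlettered ones.

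The balance between the 2 embryonic beta-like genes overlapped between the genotypes. Hbb-bh1 made up 30.8%, 33.8% and 39.9% of the embryonic beta-like reads (Hbb-y, Hbb-bh1 and Hbb-bh2) in controls 1 to 3 and 32.5%, 37.5% and 36.1% in nulls 1 to 3. All 3 lettered libraries were above all 3 unlettered ones. The means were 34.8% ± 4.63 and 35.4% ± 2.59 (SD, n = 3), and the exact permutation p between genotypes was 1 (0.333 within title sets). Null minus control was 0.204 percentage points among unlettered libraries and -3.07 among lettered ones. For the adult genes, the share of Hba-x among alpha-like reads differed by -0.00025 percentage points (exact permutation p = 0.1, 0.333 within sets), which rests on the 9 reads given above. The share of adult beta reads rested on 6 reads in controls and 14 in null cells (exact permutation p = 0.2, 0.333 within sets).

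Between genes, levels were compared per kilobase of coding length. Hbb-y was the highest, at 501152 ± 138263 CPM per kilobase in controls and 366006 ± 207073 in null cells (SD, n = 3). Hba-x and Hbb-bh1 came next, at 272477 ± 60716 and 260424 ± 32313 in controls, a gap smaller than the spread of either. In null cells they stood at 156322 ± 67788 and 193113 ± 85778. That gap too was smaller than the SD between libraries, but within each null library Hba-x was the lower gene. Hba-x exceeded Hbb-bh1 on this scale in control replicate 1 alone. Reads are counted over whole transcripts, which have 801 bases for Hba-x and 613 for Hbb-bh1. By transcript length Hba-x would lie below Hbb-bh1 in every library, so their order in controls rests on the length chosen. Hbb-bh2 was far below, at 22.3 ± 7.87 and 11.6 ± 9.74.

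Promoters of members in RefSeq (GRCm38.p6) are shown for the most counted gene of each cluster, Hba-x and Hbb-y, and for the adult alpha pair, whose likeness runs on upstream of the coding part. An entry was matched by symbol for 5 of the 8 members, and 4 are printed, each as the 150 bases before the start site, 5' to 3' on the gene's strand. Capitals mark letters found by a search of both strands. The motifs were CCACCC, the box bound by Kruppel-like factors, then CCAAT, the box bound by NF-Y, and GATAA, the core bound by GATA factors. The TATA box was searched as TATAA and also as the variant ATAAA, and matches of these can overlap. Hba-x lies at chr11:32276450-32276599 (+), Hba-a1 at chr11:32283522-32283671 (+), Hba-a2 at chr11:32296342-32296491 (+) and Hbb-y at chr7:103853208-103853357 (-).

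Hba-x: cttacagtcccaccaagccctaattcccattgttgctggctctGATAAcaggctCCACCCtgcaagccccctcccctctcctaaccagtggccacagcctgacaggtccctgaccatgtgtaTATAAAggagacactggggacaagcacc
Hbb-y: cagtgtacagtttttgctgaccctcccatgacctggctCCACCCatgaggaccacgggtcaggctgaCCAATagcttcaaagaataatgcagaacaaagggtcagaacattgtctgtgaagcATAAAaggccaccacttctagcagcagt
Hba-a1: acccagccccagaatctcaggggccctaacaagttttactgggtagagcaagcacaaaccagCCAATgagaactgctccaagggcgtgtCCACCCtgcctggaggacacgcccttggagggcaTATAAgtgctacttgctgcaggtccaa
Hba-a2: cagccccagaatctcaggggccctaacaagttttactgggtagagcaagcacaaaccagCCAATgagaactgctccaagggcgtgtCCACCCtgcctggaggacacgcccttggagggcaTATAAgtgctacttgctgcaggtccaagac

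Hba-x has CCACCC at -96 to -91, GATAA at -107 to -103 and TATAA at -28 to -24. Hbb-y has CCACCC at -112 to -107, CCAAT at -83 to -79 and ATAAA at -28 to -24. Upstream of the printed bases, within 250 of the start, GATAA was matched on the other strand at -162 to -158 in Hbb-y and on the gene's strand at -182 to -178 in Hba-a1 and -185 to -181 in Hba-a2, and ATAAA at -157 to -153 in Hbb-y. Both adult alpha promoters hold 1 CCACCC, 1 CCAAT and 1 TATAA in nearly the same letters, shifted by 3 bases. Over the 250 bases before 32851 start sites of the table, CCACCC was found in 28.1%, CCAAT in 33.8%, TATAA in 22.8%, ATAAA in 37.3% and GATAA in 22.6%. These are matches of letters, not sites of binding.

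Of a list of 40 globin gene regulators 36 were tested. Set-adjusted, 3 rose and 5 fell by edgeR, against 8.65% higher and 4.16% lower among all genes, so that the count of higher genes is near the background. That count includes Gata2, which entered the test only through its null reads. With group alone 0 passed (5 higher and 4 lower at unadjusted p under 0.05). The median log2 ratio was -0.20 set-adjusted, against 0.044 over all genes, and 0.22 with group alone, against 0.13. Ikzf1, which encodes the lymphoid and erythroid factor Ikaros, fell from 146, 135 and 70.1 CPM in controls 1 to 3 to 65.9, 27.7 and 40.5 in nulls 1 to 3 (log2 ratio -1.07, SE 0.20). Dnmt1, the maintenance DNA methyltransferase, fell from 145 ± 34.4 to 70.5 ± 10.6 CPM (log2 ratio -0.89, SE 0.20). Mbd3, a subunit of the NuRD repressor, had a log2 ratio of -1.22 (SE 0.20), Nr2c2, the orphan receptor TR4, one of -1.53 (SE 0.45), and Zbtb7a, a repressor of fetal globin in human cells, one of -0.93 (SE 0.27). Every null library lay below every control for these genes except Mbd3, which differed strongly between the sets.

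Of the regulators that rose, Nfe2, the large subunit of NF-E2, went from 150, 136 and 188 CPM to 243, 269 and 262 (log2 ratio 0.63, SE 0.15). Hic2, a repressor, stood at 26.2 ± 9.41 and 81.6 ± 73.3 CPM (log2 ratio 1.87, SE 0.31). Its groups overlapped, with 28.4, 34.3 and 15.9 CPM in controls 1 to 3 and 165, 54.1 and 26.1 in nulls 1 to 3. Gata2, the GATA factor of progenitors, had 6, 5 and 1 reads in the controls and 131, 87 and 157 in nulls 1 to 3. It could enter the test only through its null reads and so had to differ, and its call is not counted as a result. The edgeR adjusted p of the 8 genes called, Gata2 among them, ran from 0.00285 (Mbd3) to 0.0451 (Zbtb7a). Without null replicate 1, 0 rose and 1 fell, and without null replicate 3, 3 rose and 6 fell. Zbtb7a kept its call in 1 of the 6 fits that leave out a library and Nfe2 and Nr2c2 in 2, while Ikzf1, Dnmt1, Mbd3 and Hic2 kept it in 5. With Y-linked reads as a further term all 8 lost it (adjusted p 0.0538 for Hic2 to 0.291 for Nfe2).

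Of the regulators that did not pass, those with the highest levels were Gata1, Klf1, Hdac1 and Tal1. Klf1, the erythroid Kruppel-like factor, stood at 87.5, 66.8 and 714 CPM in controls 1 to 3 and at 75.1, 542 and 604 in nulls 1 to 3, high in the lettered libraries of both groups (log2 ratio -0.18 set-adjusted, edgeR adjusted p = 0.533). Gata1 stood at 419 ± 90.5 and 358 ± 68.9 CPM (log2 ratio -0.059), Tal1 at 124 ± 24.3 and 122 ± 23.3 (-0.18) and Hdac1 at 165 ± 18.1 and 132 ± 22.4 (-0.21).

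Of the genes that handle globin chains and their heme, 7 were tested and 1 rose, where 8.65% of all genes were called higher. Ube2o, the enzyme that tags free alpha chains and ribosomal proteins for destruction in reticulocytes, went from 11.2, 9.09 and 29.3 CPM in the controls to 34.4, 59.7 and 60.7 in nulls 1 to 3 (log2 ratio 1.39, SE 0.25, edgeR adjusted p = 0.00451 set-adjusted), and it kept its call in 5 of 6 fits without 1 library, all but that without null replicate 1. It lost the call with Y-linked reads as a term (adjusted p = 0.145). With group alone 0 passed (1 higher at unadjusted p under 0.05). Alas2, the first enzyme of heme synthesis in red cells, stood at 2737 ± 395 and 2692 ± 315 CPM (log2 ratio 0.090) and did not pass. Eif2ak1, the heme-regulated kinase that slows globin translation, stood at 154 ± 156 and 222 ± 142 CPM (log2 ratio -0.043), high in the lettered libraries of both groups. The chaperones Hspa8 and Dnaja1 had log2 ratios of -0.19 and 0.11 and did not pass.

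Of 7 tested genes of the alpha cluster and its flank, 2 rose and 0 fell set-adjusted, where 8.65% of all genes were called higher and 4.16% lower. Without null replicate 1, and without control replicate 3, 0 rose. Nprl3, whose introns hold the alpha-globin enhancers, rose from 21.3, 20.9 and 11.2 CPM to 47.9, 42.0 and 28.7 (log2 ratio 1.42, SE 0.28, edgeR adjusted p = 0.00716). It lost its call without null replicate 1 (adjusted p = 0.0963), without control replicate 3 (0.0747) and with Y-linked reads as a term (0.184). Mpg, a DNA glycosylase, averaged 35.5 ± 7.25 CPM in controls and 55.7 ± 13.7 in null cells (SD, n = 3; edgeR log2 ratio 0.79 with an SE of 0.24, adjusted p = 0.0498), and lost its call in 5 of 6 fits without 1 library. With group alone 0 passed (1 higher at unadjusted p under 0.05). Hbq1b, a theta-globin gene between the adult alpha genes, measured 136, 126 and 103 CPM in controls 1 to 3 and 128, 73.4 and 70.9 in nulls 1 to 3 (log2 ratio -0.27, adjusted p = 0.339). Since 39.8% of its 50-base windows occur in Hbq1a, its count is uncertain. Snrnp25, Polr3k and Rhbdf1 had log2 ratios of -0.13, -0.25 and -0.31 and did not pass.

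Of 16 listed neighbours of the beta cluster 3 were tested. Trim6, a ubiquitin ligase of a family flanking the cluster, had 0, 2 and 2 reads in the controls and 298, 109 and 67 in nulls 1 to 3. It passed the filter on low counts only through its null reads and so had to differ, and its call is not counted as a result. Rrm1, a subunit of ribonucleotide reductase, stood at 494 ± 94.3 and 371 ± 59.3 CPM (log2 ratio -0.31), and Stim1 at 5.59 ± 0.744 and 4.24 ± 1.72 (-0.34), and neither passed. Of 7 other globin family symbols 3 were in the tables and 0 reached the test, with Mb, myoglobin, at 0 in every library.

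Likeness to the globins was measured as Pearson r of log2 CPM over the 6 libraries, each title set centred on its own mean, across 6429 genes above 10 CPM. Within the family, Hbb-y and Hbb-bh1 were closest (r = 0.96), and Hba-x was less like either (0.85 and 0.81). The genes most like Hba-x were Dhx37, a helicase of ribosome assembly, Rad50, a DNA repair protein, and Fkbp3 (all r = 0.996). For Hbb-y they were Tceb1 (0.998), Rbm8a (0.994) and Pole3 (0.991), and for Hbb-bh1 Dtymk (0.999), Pmm2 (0.999) and Tomm5 (0.994). The points share libraries, depth and scaling, and these values are a description only.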

How the data were processed

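Polyadenylated RNA of 6 sorted erythroblast samples was sequenced. The authors deposited 1 table of raw read counts per library. Per the submitters' processing notes, FastQC, Trimmomatic 0.32, TopHat2 2.1.0, HTSeq 0.6.1 and edgeR were used with build mm9; no source used here gives the annotation, the read length or the strand setting, so overlapping antisense genes are uncertain. The 25 symbols turned into dates in the unlettered tables were mapped back, and summary lines were kept out of library sizes; reads assigned to genes were 32.3% of all reads listed for control replicate 1, 67.6% for control replicate 2 and 59.1% for null replicate 1.

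Counts were tested with edgeR 4.0.16 in R 4.3.3: filterByExpr by group (10512 genes), TMM, estimateDisp, glmQLFit with robust=TRUE and glmQLFTest, 2-sided, Benjamini-Hochberg over all genes at 0.05. The model had title set and group (3 residual degrees of freedom); group alone, DESeq2 1.42.0, other scalings and filters, and each library left out were alternatives. The script was tested on simulated data. CPM are TMM-scaled, and log2 ratios within a set use a prior count of 2. Shares and ratios per library were compared by exact permutation. Members, lists and the rule for named genes (all 8 globins; of each list the genes called and the 4 highest others; the 3 genes most like each globin above 10 CPM) were chosen with earlier results of these data known. The labels name no separate embryos, so the p-values rest on a spread between libraries that may be technical. No 2 libraries of a group agreed within sampling noise (chi-square per degree of freedom 21.9 to 369.1).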

Additional observations from a re-analysis of the deposited data

Results flagged for a closer look

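In the summary lines of the unlettered tables, which no comparison above uses, reads without a unique alignment made up 32.4% of the table total in null replicate 1, above the 24.1% and 22.5% of control replicates 1 and 2. Ambiguous reads made up 2.35%, above 0.657% and 2.17%. Both rest on 1 null library, and which genes these reads belong to, adult globins among them, was not tested. Reads outside any counted feature made up 42.9% in control replicate 1, 7.72% in control replicate 2 and 6.07% in null replicate 1. Shares of the table total are therefore not alike between these libraries. Set against gene counts of 7756940, 21434719 and 21381086 instead, reads without a unique alignment in null replicate 1 lay between those of the controls.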

How the results depend on the processing

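With the title set as a term, 1 globin, Hba-x, was called. The count was 1 by DESeq2 (adjusted p = 0.0024), with RLE size factors, with library size alone, with no filter, without robust estimation and with near-identical copies summed. It was 0 with group as the only term, with the 8 globins left out of library sizes and TMM, with Y-linked transcripts as a further term, and with any 1 library left out (0 to 0, set-adjusted and with group alone; the latter fits were added after the data were seen). Each such fit has fewer samples or degrees of freedom, except those with group alone and without the globins, where the cause was not tested. The median log2 ratio of all genes was 0.044 set-adjusted, 0.0081 to 0.070 with RLE factors and library size alone, -0.0065 without the globins and 0.20 with no filter.
Directions that reversed were as follows. Without control replicate 3 the log2 ratio of Hbb-y was 0.042, of Hbb-bh1 0.056, of Eif2ak1 0.061, of Snrnp25 0.22 and of Stim1 0.18. With group as the only term that of Klf1 was 0.49, of Alas2 -0.024, of Dnaja1 -0.17, of Eif2ak1 0.53 and of Rhbdf1 0.26. With Y-linked transcripts as a term that of Gata1 was 0.058, of Snrnp25 0.040, of Rhbdf1 0.54 and of Stim1 0.14. Without null replicate 3 that of Dnaja1 was -0.025, and without null replicate 2 that of Eif2ak1 was 0.014. Without null replicate 1, the other end of the range was -0.48 for Hbb-y, -0.66 for Hbb-bh1, -0.51 for Snrnp25 and -0.89 for Stim1, and without null replicate 3 it was -0.21 for Eif2ak1. None of these genes passed in either fit. The Hbb-bh1 share of embryonic beta-like reads differed by -3.07 percentage points in the lettered titles alone, and by -1.46 to 3.09 (without control replicates 1 and 3) and -0.508 (without null replicate 2) with 1 library left out. The alpha-like to beta-like ratio and the total globin share kept their direction in both title sets, without any 1 library, and per coding or transcript length (ratio) or with TMM scaling (share, -13.97 points).
Over all genes 909 were higher and 437 lower set-adjusted, against 120 and 1 with group alone, 161 and 62 with Y-linked transcripts as a term, 897 and 256 with library size alone, 1139 and 723 with no filter, 1262 and 882 by DESeq2, and 162 to 869 and 40 to 734 with 1 library left out. No paired analysis was possible because the labels number no replicates. Depth does not limit the 3 abundant globins; for the adult genes the uniquely assigned reads do.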

Other observations

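Hbq1b, the theta-globin gene of the alpha cluster, did not keep a fixed ratio to Hba-x. For each 100000 reads of Hba-x there were 97.4, 102 and 116 reads of Hbq1b in controls 1 to 3 and 127, 133 and 155 in nulls 1 to 3. Hba-x, the denominator, was itself called lower (set-adjusted log2 ratio -0.60), while Hbq1b was not (-0.27). The ratio was thus higher in nulls because Hba-x was lower by more. The same ratio was not taken for other genes, so these values do not show a trait of Hbq1b. The Hbq1b count is also uncertain, since 39.8% of its 50-base windows occur in Hbq1a. This ratio was chosen after its values were seen and was not tested.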
